A study of Homo sapiens with 12 samples.

Results

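Histone genes encode the proteins that DNA is wound around. A gene was taken as a member when its current symbol began with H1-, H2A, H2B, H3 or H4 followed by a histone designation, and 49 genes met this among the 11963 with a probe set that lists a single symbol. A probe set is the group of array probes that together give 1 value. Of the 49, 35 were clustered core genes (H2AC, H2BC, H3C or H4C and a number), 6 were clustered linker genes (H1-1 to H1-6) and 8 were variants or others (H1-10, H2AJ, H2AP, H2AX, H2AZ1, H2AZ2, H3-3A and H3-4). H2BC12L, which lies on chromosome 21, was counted with the clustered core genes. The single-symbol rule leaves out many relatives. RefSeq lists 92 protein-coding histone symbols of this form, and 24 histone genes appeared only on probe sets that list several genes.

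An octamer of the core histones H2A, H2B, H3 and H4 forms the nucleosome, and linker histone H1 binds the DNA between nucleosomes. Most core histones are made in S phase from many near-identical genes in clusters, whose RNAs end in a stem-loop bound by SLBP in place of a poly(A) tail. Some of these clustered genes are known to give polyadenylated RNA as well when cells leave the cycle. Variant histones such as H2A.Z, H3.3 and H1.X come from genes of their own outside the clusters, with polyadenylated RNA, are made outside S phase too, and are placed by chaperones of their own.

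The cells were RCC4, a cultured line from a clear cell carcinoma of the kidney. They were transfected with siRNA against YAP, a co-activator of transcription held back by the Hippo pathway, or with non-targeting siRNA (siNT). After 2 days both received 1 µM erastin, an inhibitor of cystine import that can trigger ferroptosis, or DMSO, its solvent, for 7 h. This gave 4 groups of 3 arrays: siNT with DMSO, siNT with erastin, and the siYAP counterparts of both. All 12 arrays are of this 1 line, all groups were transfected, and no untransfected cells are among them. The submitters call the arrays of a group biological triplicates. Whether each came from its own culture is not stated, and p-values then cover only the spread among these samples, which may be technical. YAP1 lay between 8.47 and 8.65 on the log2 scale on the siNT arrays and between 4.18 and 4.90 on 5 of the 6 siYAP arrays. The other, siYAP with erastin replicate 2, was at 6.21, below every siNT array but well above the rest. The 6 measured kidney and carcinoma-line markers had group medians of 10.3 to 10.5, and in each silencing comparison 1 was higher and 2 were lower. Medians of the immune, endothelial, fibroblast and germ cell lists lay between 3.37 and 4.56, and limma called 0 of those 19 genes in either silencing comparison, with 0 at an unadjusted p under 0.05.

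All values are log2 levels after RMA, which equalises arrays, and a shift in the RNA content of the whole cell is therefore invisible in them. In bulk RNA, fewer cells in S phase and less histone RNA per cell cannot be told apart. The priming used for labelling is not given in the sources used here. The level of a clustered histone gene therefore means its RNA as labelled, with or without a poly(A) tail. Levels are compared within a gene only. As many as 29 of the 49 genes had all 4 group means below 5.38, the 30th percentile of mean levels over all genes, and these dim genes can show only compressed differences. They were 22 clustered core genes, H1-1, H1-3, H1-4, H1-5, H2AJ, H2AP and H3-4.

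Silencing YAP in DMSO moved histone genes in both directions. It raised 8 of 49 and lowered 6 (limma, adjusted p under 0.05 over all 11963 genes). The background was 33.7% of all genes, 18.1% higher and 15.6% lower, against 28.6% of the histone genes, below the background over all genes. The median change was 0.00 on the log2 scale for the histone genes and 0.02 for all genes. With erastin on both sides, silencing raised 9 and lowered 7, 32.7% of the family against a background of 34.9%, of which 20.0% higher and 14.8% lower. Medians were 0.00 and 0.01. These 2 comparisons share no array. The calls went the same way in both for 10 genes: H1-2, H2AC6, H2BC12, H2BC12L, H2BC5, H2BC6 and H4C8 were higher, and H1-10, H2AX and H2AZ2 were lower. No gene was called in opposite directions, and 29 were called in neither. Thus 20 of 49 were called in DMSO, with erastin or both, near the 42.3% of all genes. The share of all genes called the same way in both was not counted. All 3 siYAP arrays lay above all 3 siNT arrays for 9 histone genes in DMSO (24.7% of all genes) and below them for 7 (20.7%), and with erastin for 11 (25.3%) and 10 (19.7%). Calls were more frequent among brighter genes. Of the 20 histone genes whose mean over the 12 arrays reached 5.38, 55.0% were called in DMSO and 60.0% with erastin, against 45.2% and 46.7% of the 8374 such genes in all. Of the 29 dimmer histone genes 10.3% and 13.8% were called, against 6.71% and 7.3% of dimmer genes. These shares describe a list dominated by dim genes and were not tested.

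**Figure D1:**
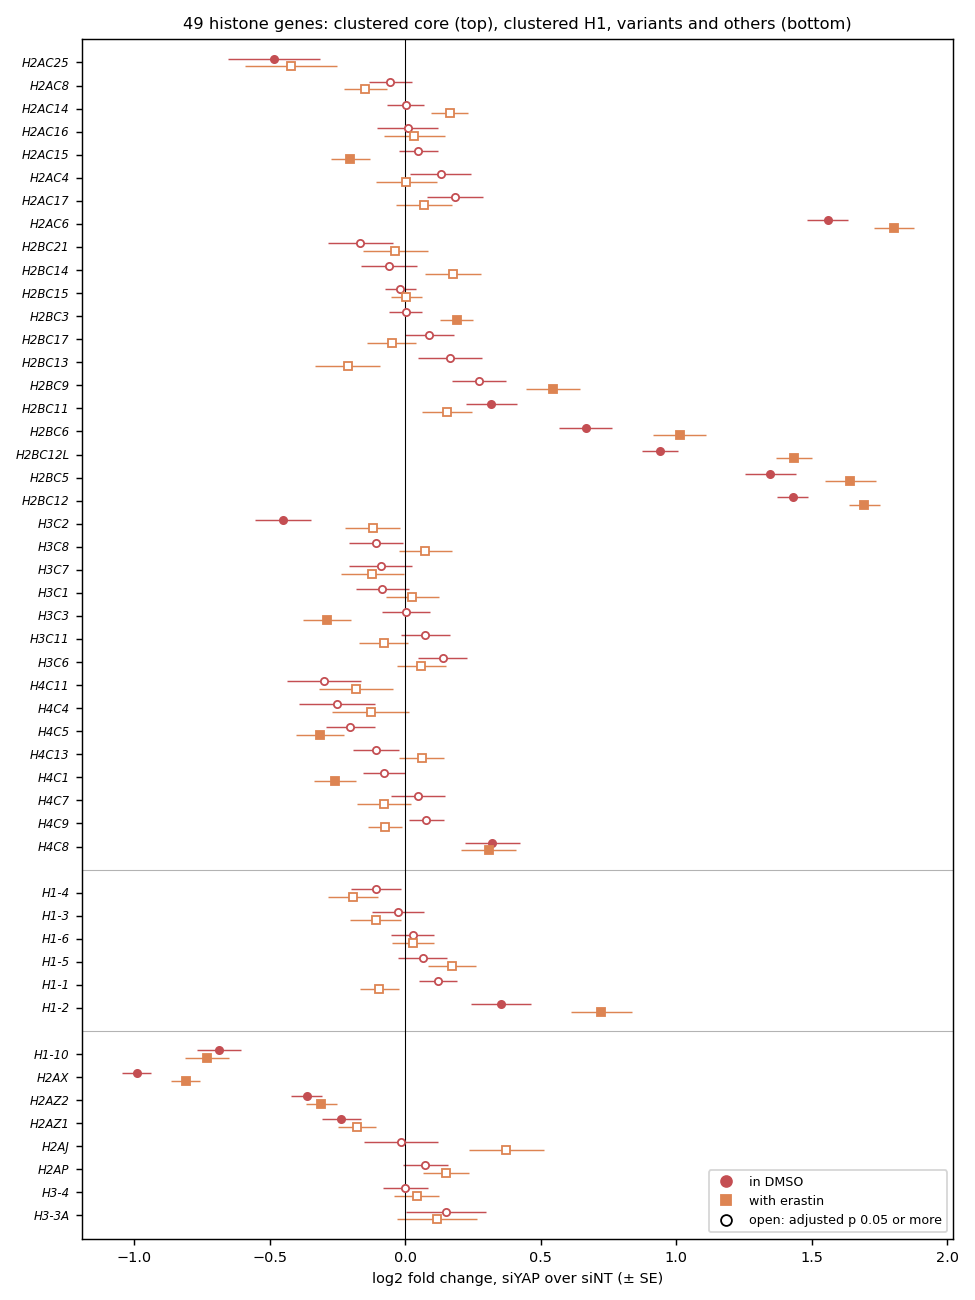
Log2 fold change of siYAP over siNT (x axis, with the standard error) for each of the 49 histone genes, in DMSO (circles) and with erastin (squares), filled where the adjusted p was under 0.05. H2AC6, H2BC12 and H2BC5 lie farthest right at 1.35 to 1.80, while H2AX and H1-10 lie farthest left at -0.69 to -0.99.

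The largest rises were in clustered H2A and H2B genes, followed at a smaller size by the linker gene H1-2. The upstream DNA of H2AC6, H2BC12, H2BC5 and H1-2, chosen after their values were seen, is shown because they are among the genes on the upward side of the result. Each stretch runs from base -150 to base -1 before the annotated start of the gene, on the gene's strand, from RefSeq on GRCh38.p14. They are chr6:26124022-26124171 on the plus strand for H2AC6, chr6:27146859-27147008 on the minus strand for H2BC12, chr6:26157971-26158120 on the plus strand for H2BC5 and chr6:26056471-26056620 on the minus strand for H1-2. Capitals mark the CCAAT box, the TATA box TATAAA and the octamer core TTTGCAT, known from H2B promoters, on either strand, so ATTGG and ATGCAAA are the reverse complements of the first and the last.
H2AC6: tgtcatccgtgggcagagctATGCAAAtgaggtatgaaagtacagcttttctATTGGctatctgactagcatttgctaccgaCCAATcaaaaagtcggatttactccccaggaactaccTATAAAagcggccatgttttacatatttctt
H2BC12: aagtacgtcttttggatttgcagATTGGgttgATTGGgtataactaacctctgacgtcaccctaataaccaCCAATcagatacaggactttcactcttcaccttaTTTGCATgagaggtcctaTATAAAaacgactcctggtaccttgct
H2BC5: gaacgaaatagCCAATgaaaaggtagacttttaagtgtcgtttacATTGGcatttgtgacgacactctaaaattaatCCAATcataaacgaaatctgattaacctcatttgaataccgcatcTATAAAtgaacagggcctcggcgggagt
H1-2: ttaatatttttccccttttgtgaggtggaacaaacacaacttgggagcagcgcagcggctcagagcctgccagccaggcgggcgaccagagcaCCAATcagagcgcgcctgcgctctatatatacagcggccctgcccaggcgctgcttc
In these stretches H2AC6 and H2BC12 hold all 3 motifs, and H2BC5 holds 3 CCAAT boxes and a TATA box. H1-2 holds 1 CCAAT box and neither TATAAA nor TTTGCAT. Only these exact strings were searched, so other forms of a TATA box are not marked. H2BC6, which rose more than H1-2 in both comparisons but is not shown, holds CCAAT and TTTGCAT in the same span. Its only TATAAA begins at base -189, outside that span.

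H2AC6, which encodes a canonical H2A, was 5.82, 5.94 and 5.90 in siNT with DMSO and 7.45, 7.53 and 7.35 in siYAP with DMSO. Under erastin the values were 5.67, 5.88 and 5.91 in siNT and 7.63, 7.55 and 7.68 in siYAP. Every siYAP array was above every siNT array by more than 1 log2 unit. The fitted rise was 1.56 ± 0.07 (SE) in DMSO, 2.95-fold (adjusted p = 2.47e-08), and 1.80 ± 0.07 with erastin, 3.49-fold (adjusted p = 9.39e-09).

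H2BC12, a canonical H2B gene, was 8.41, 8.39 and 8.50 in siNT with DMSO and 9.91, 9.81 and 9.88 in siYAP with DMSO. It was 8.33, 8.38 and 8.31 in siNT with erastin and 10.08, 9.95 and 10.07 in siYAP with erastin. The groups stood apart and the replicates of each lay close together. H2BC12 rose by 1.43 ± 0.06 in DMSO (2.70-fold, adjusted p = 9.64e-09) and by 1.69 ± 0.06 with erastin (3.24-fold, adjusted p = 2.86e-09).

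H2BC5, another H2B gene, stood at 6.93, 6.93 and 7.19 in siNT with DMSO and at 8.52, 8.42 and 8.16 in siYAP with DMSO. With erastin its values were 6.93, 6.98 and 6.90 against 8.59, 8.50 and 8.65. Again no arrays overlapped. The rise was 1.35 ± 0.09 in DMSO (2.55-fold, adjusted p = 3.46e-07) and 1.64 ± 0.09 with erastin (3.12-fold, adjusted p = 9.09e-08). Its second probe set, tested among all 22215 probe sets, was also higher, by 0.62 and 1.06.

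Those 3 genes belong to a list of 5 clustered genes known for polyadenylated RNA on leaving the cell cycle (H2AC6, H2BC4, H2BC5, H2BC12 and H2BC21). H2BC4 had no single-symbol probe set. H2BC21, the last of the list, was dim, at 3.95 to 4.39 in siNT with DMSO and 3.93 to 4.03 in siYAP with DMSO. Its arrays overlapped and the difference of -0.17 was not called (adjusted p = 0.345; with erastin -0.04, adjusted p = 0.866).

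H2BC12L, a relative of H2BC12 on chromosome 21, was 6.66, 6.76 and 6.78 in siNT with DMSO and 7.72, 7.77 and 7.52 in siYAP with DMSO. In the erastin groups it was 6.61, 6.54 and 6.56 against 8.00, 7.99 and 8.03. H2BC12L rose by 0.94 ± 0.07 in DMSO (1.92-fold, adjusted p = 3.48e-07) and by 1.43 ± 0.07 with erastin (2.70-fold, adjusted p = 2.44e-08), with no overlap of arrays. H2BC6, also H2B, ran from 5.57 to 5.84 in siNT with DMSO and from 6.29 to 6.46 in siYAP with DMSO, and from 5.34 to 5.70 against 6.44 to 6.65 with erastin. H2BC6 rose 1.59-fold in DMSO (adjusted p = 0.00017) and 2.02-fold with erastin (adjusted p = 5.04e-06).

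The probe sets of H2BC12L, H2BC5, H2BC6 and H2BC9 are of a type (suffix _x_at) that can also bind near-identical transcripts, so their values may hold signal from other H2B genes and are uncertain as values of single genes. Both probe sets of H2BC5 are of this type. Of 7 members with such probe sets, 3 were higher in DMSO and 4 with erastin, against 18.1% and 20.0% of all genes. Without probe sets of this type, an alternative chosen after seeing the data, 42 members stayed measured, 5 were higher in either comparison, and H2AC6 and H2BC12 kept the largest rises. H2AC6 and H2BC12 do not rest on probe sets of this kind, having the suffixes _s_at and _at. Whether these also bind related transcripts was not tested.

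Smaller rises were found in other clustered genes. H1-2, which encodes the linker histone H1.2, was 6.52, 6.55 and 6.91 in siNT with DMSO and 7.05, 6.95 and 7.03 in siYAP with DMSO. The groups nearly met, at 6.91 and 6.95. With erastin H1-2 was 6.71, 6.5 and 6.32 against 7.17, 7.21 and 7.32. It rose by 0.35 ± 0.11 in DMSO (adjusted p = 0.0265), a call lost on leaving out siNT with DMSO replicate 1 or 2 or siYAP with DMSO replicate 1 or 3 (adjusted p up to 0.111). With erastin H1-2 rose by 0.72 ± 0.11 (adjusted p = 0.000217). The other 5 clustered linker genes, H1-1, H1-3, H1-4, H1-5 and H1-6, were not called, with log2 changes between -0.11 and 0.12 in DMSO and between -0.19 and 0.17 with erastin.

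H2BC9 stood at 5.90, 5.72 and 6.05 in siNT with DMSO and at 6.33, 6.04 and 6.12 in siYAP with DMSO, so that the groups overlapped, and the difference of 0.27 was not called (adjusted p = 0.0553). With erastin it was 5.62, 5.79 and 5.83 against 6.19, 6.42 and 6.27, without overlap, a rise of 0.54 ± 0.10 (adjusted p = 0.000898). H4C8, an H4 gene, rose by 0.32 (adjusted p = 0.0273) and 0.31 (adjusted p = 0.033), both at dim levels of 3.83 to 4.65. H2BC11, likewise dim, rose in DMSO by 0.32 (adjusted p = 0.0189), and H2BC3 rose with erastin by 0.19 (adjusted p = 0.028). Each of these 4 dim calls was lost on leaving out single arrays. In DMSO these were siNT replicate 2 and siYAP replicate 1 or 2 for H4C8, and siNT replicate 1 or 2 and siYAP replicate 2 or 3 for H2BC11. With erastin they were siNT replicate 1 or 3 and siYAP replicate 1 for H4C8, and siNT replicate 1 or 3 and any siYAP array for H2BC3.

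By family, the higher calls gathered in H2B. In DMSO 5 of 12 H2B genes were higher and 0 lower, and with erastin 6 of 12 were higher and 0 lower, against the 18.1% and 20.0% of all genes called higher. The H2B median was 0.22 in DMSO and 0.18 with erastin. Of the 8 clustered H2A genes, H2AC6 alone was higher in either comparison. The 9 H3 genes had 0 higher and 1 lower in each, and the 8 H4 genes had 1 higher and 0 lower in DMSO, then 1 higher and 2 lower with erastin. Since several H2B probe sets may read the same RNAs, the 12 H2B values are not independent.

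**Figure D2:**
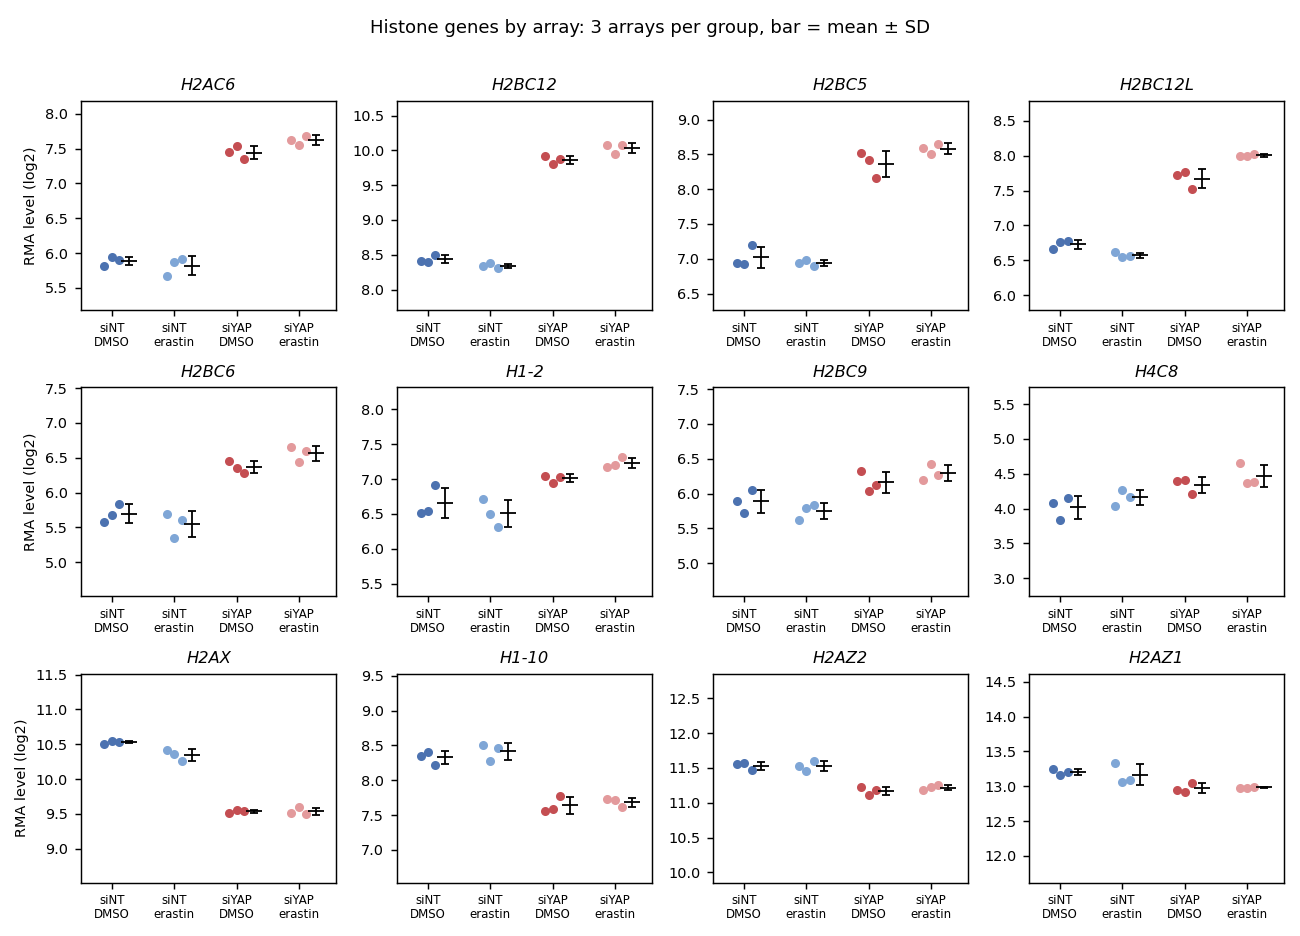
RMA level (log2, y axis) of 12 histone genes on each of the 12 arrays, by group, with the mean and SD of 3 arrays beside the points; each panel has its own y range. The siYAP arrays stand above all siNT arrays for the 3 largest rises and below them for H2AX and H1-10, while H1-2 and H2BC9 lie close or overlap in DMSO.

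Falls among clustered genes with a single-symbol probe set were small, and a shared H4 probe set that fell by more is given below. H3C2, an H3 gene, was 4.64, 4.54 and 4.70 in siNT with DMSO and 3.94, 4.20 and 4.38 in siYAP with DMSO, a dim fall of -0.45 (adjusted p = 0.00379) without overlap. With erastin H3C2 differed by -0.12 (adjusted p = 0.428). H2AC25 was 6.46, 6.80 and 7.17 against 6.49, 6.38 and 6.11 in DMSO. It fell by 0.48 (adjusted p = 0.0446) although the groups overlapped, and the call did not hold under 10 alternatives, centring each array on its median (adjusted p = 0.0511) and leaving out replicate 2 or 3 of either DMSO group (adjusted p up to 0.188) among them. With erastin, H4C5 (-0.31, adjusted p = 0.0151), H3C3 (-0.29, adjusted p = 0.0236), H4C1 (-0.26, adjusted p = 0.0202) and H2AC15 (-0.20, adjusted p = 0.0454) fell. All 4 of these calls were lost without siYAP with erastin replicate 2, the array with the higher YAP1 level, and adjusted p then ranged from 0.0637 to 0.104. Other siYAP arrays with erastin decided 2 of them as well, replicate 3 for H4C1 and replicate 1 or 3 for H2AC15. Single siNT arrays with erastin also decided them, replicate 3 for H4C5, replicate 1 or 2 for H3C3, replicate 1 for H4C1 and any of the 3 for H2AC15. The lower calls with erastin numbered 4 in place of 7 without siYAP with erastin replicate 2, with H1-4 gained.

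All calls among the variants were falls. In DMSO 4 of 8 were lower and 0 higher, and with erastin 3 were lower and 0 higher, against the 15.6% and 14.8% of all genes called lower. The promoters of the 4 genes that fell are shown because they carry the downward side of the result, and they too were chosen after their values were seen. The stretches, marked as above and again from RefSeq on GRCh38.p14, all lie on the minus strand, at chr11:119095466-119095615 for H2AX, chr3:129316287-129316436 for H1-10, chr7:44848088-44848237 for H2AZ2 and chr4:99950276-99950425 for H2AZ1.
H2AX: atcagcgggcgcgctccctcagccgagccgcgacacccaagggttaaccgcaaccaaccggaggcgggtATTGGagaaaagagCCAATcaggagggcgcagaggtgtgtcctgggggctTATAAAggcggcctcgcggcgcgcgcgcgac
H1-10: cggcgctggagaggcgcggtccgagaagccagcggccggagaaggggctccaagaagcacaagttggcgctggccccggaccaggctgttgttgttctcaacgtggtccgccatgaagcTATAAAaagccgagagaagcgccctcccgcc
H2AZ2: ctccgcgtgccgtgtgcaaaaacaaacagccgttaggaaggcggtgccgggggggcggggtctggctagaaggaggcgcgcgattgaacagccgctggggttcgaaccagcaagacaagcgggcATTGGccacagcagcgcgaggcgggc
H2AZ1: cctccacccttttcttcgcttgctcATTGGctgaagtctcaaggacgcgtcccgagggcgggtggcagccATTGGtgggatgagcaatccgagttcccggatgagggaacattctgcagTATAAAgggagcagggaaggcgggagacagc
H2AX and H2AZ1 hold 2 CCAAT boxes and a TATA box each in these stretches. H1-10 holds a TATA box and no CCAAT box, and H2AZ2 holds 1 CCAAT box and no TATAAA.

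H2AX encodes the H2A form that is phosphorylated beside DNA breaks, and its gene gives both stem-loop and polyadenylated RNA. It was 10.51, 10.54 and 10.54 in siNT with DMSO and 9.52, 9.55 and 9.54 in siYAP with DMSO. With erastin H2AX was 10.42, 10.37 and 10.25 against 9.51, 9.60 and 9.49. The groups were separated by far more than their spread, with an SD of 0.02 in either DMSO group. H2AX fell by 0.99 ± 0.05 in DMSO, 1.99-fold lower (adjusted p = 6.18e-08), and by 0.81 ± 0.05 with erastin, 1.75-fold lower (adjusted p = 2.92e-07). Its value rests on the brightest of 4 probe sets. The next 2 were also lower in both comparisons but by less, with changes of -0.49 and -0.41 in DMSO and -0.43 and -0.26 with erastin, and the dimmest, at a mean of 5.00, differed by -0.06 and -0.05 and was not called. As the mean of its probe sets H2AX fell by 0.49 in DMSO and by 0.39 with erastin.

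H1-10 encodes the linker variant H1.X, which is made outside S phase. It was 8.35, 8.41 and 8.22 in siNT with DMSO and 7.56, 7.59 and 7.78 in siYAP with DMSO. Under erastin it was 8.51, 8.28 and 8.46 against 7.73, 7.71 and 7.61. No arrays overlapped. H1-10 fell by 0.69 ± 0.08 (1.61-fold lower, adjusted p = 2.48e-05) and by 0.73 ± 0.08 (1.66-fold lower, adjusted p = 1.45e-05). Within the linker family this fall stood beside the rise of H1-2.

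H2AZ1 and H2AZ2 encode the 2 forms of H2A.Z, a variant found around transcription start sites. H2AZ2 was 11.56, 11.57 and 11.47 in siNT with DMSO and 11.22, 11.10 and 11.18 in siYAP with DMSO, and 11.53, 11.45 and 11.60 against 11.18, 11.23 and 11.25 with erastin. It fell by 0.36 ± 0.06 (adjusted p = 0.000281) and by 0.31 ± 0.06 (adjusted p = 0.00094), without overlap, and its other 2 probe sets were lower by more, with changes of -0.59 and -0.52 in DMSO and -0.43 and -0.58 with erastin. H2AZ1 was 13.24, 13.16 and 13.21 against 12.95, 12.91 and 13.05 in DMSO, a fall of 0.24 ± 0.07 (adjusted p = 0.0204). That call was lost on leaving out siNT with DMSO replicate 1 or siYAP with DMSO replicate 1 or 2 (adjusted p up to 0.0765). With erastin H2AZ1 was 13.33, 13.06 and 13.09 against 12.98, 12.98 and 12.99 and the difference of -0.18 was not called (adjusted p = 0.0708). It was called lower under 6 alternatives (adjusted p from 0.00252 with array weights to 0.0476 without the dimmest 30% of probe sets), 1 of which left out siNT with erastin replicate 2 (adjusted p = 0.0319). Its second probe set was lower in both, by 0.28 (adjusted p = 0.00358) and by 0.21 (adjusted p = 0.0165).

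The remaining variants were not called. H3-3A, which encodes the replacement histone H3.3, was 8.18, 8.28 and 8.37 in siNT with DMSO and 8.51, 8.29 and 8.48 in siYAP with DMSO. The groups overlapped and the difference was 0.15 (95% interval -0.17 to 0.47, adjusted p = 0.51). With erastin it was 0.12 (interval -0.20 to 0.44, adjusted p = 0.616), and siNT with erastin replicate 3, at 7.79, was the lowest of the 12 arrays. H2AJ, an H2A form known to build up in senescent cells, was dim. It was 3.91, 4.20 and 3.97 in siNT with DMSO and 4.19, 3.87 and 3.98 in siYAP with DMSO, a difference of -0.02 (adjusted p = 0.951). Under erastin it was 3.97, 4.0 and 4.09 against 4.28, 4.14 and 4.75, with all 3 siYAP arrays above all 3 siNT arrays, a difference of 0.37 that was not called (adjusted p = 0.0536). It was called higher under 3 alternatives, a trended and robust variance (adjusted p = 0.0359), array weights (adjusted p = 0.0264) and leaving out siYAP with erastin replicate 2, the array with the higher YAP1 level (0.50, adjusted p = 0.0171). H3-4, the testis form of H3, stayed between 4.20 and 4.53 on all 12 arrays, and H2AP between 4.05 and 4.49.

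A further 29 probe sets list several genes and were read as groups of genes, with no single gene named from them. In a fit of all 22215 probe sets, where 27.4% were called in DMSO and 28.9% with erastin, 4 were higher and 3 lower in DMSO, and 6 were higher and 3 lower with erastin. An H4 cluster probe set with a mean of 12.8 that lists 14 genes, singled out after its values were seen, was 12.96, 13.11 and 13.22 in siNT with DMSO and 12.39, 12.36 and 12.53 in siYAP with DMSO. With erastin it was 13.09, 13.11 and 13.09 against 12.51, 12.70 and 12.57. It fell by 0.67 ± 0.08 (adjusted p = 2.74e-05) and by 0.50 ± 0.08 (adjusted p = 0.000289), without overlap. This is the opposite sign to the dim single-symbol H4C8, and other H4 cluster probe sets went either way.

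Of the 4 H3 cluster probe sets only a single member, which lists 10 genes, was called. It was 4.20, 4.19 and 4.25 in siNT with DMSO and 4.70, 4.92 and 4.74 in siYAP with DMSO. This was a dim rise of 0.58 ± 0.07 (adjusted p = 6.5e-05), and of 0.49 with erastin (adjusted p = 0.000233). The other H3 cluster probe sets went either way and were called in neither comparison. Their changes lay between -0.41 and 0.11 in DMSO and between -0.13 and 0.10 with erastin. Probe sets shared by H2AC18 and H2AC19, a pair of clustered H2A genes, were higher in 2 of 3 cases in DMSO and in 2 of 3 with erastin. Of the 5 shared H2B probe sets none was called in DMSO (smallest adjusted p = 0.0513) and 3 were higher with erastin, at 0.36 to 0.59. The 8 probe sets of the H3.3 genes had mean levels of 10.24 to 13.24 and changes between -0.28 and 0.09 in DMSO. One of them was lower in both comparisons (-0.28, adjusted p = 0.000897, and -0.26, adjusted p = 0.00163) and the other 7 were not called.

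**Figure D3:**
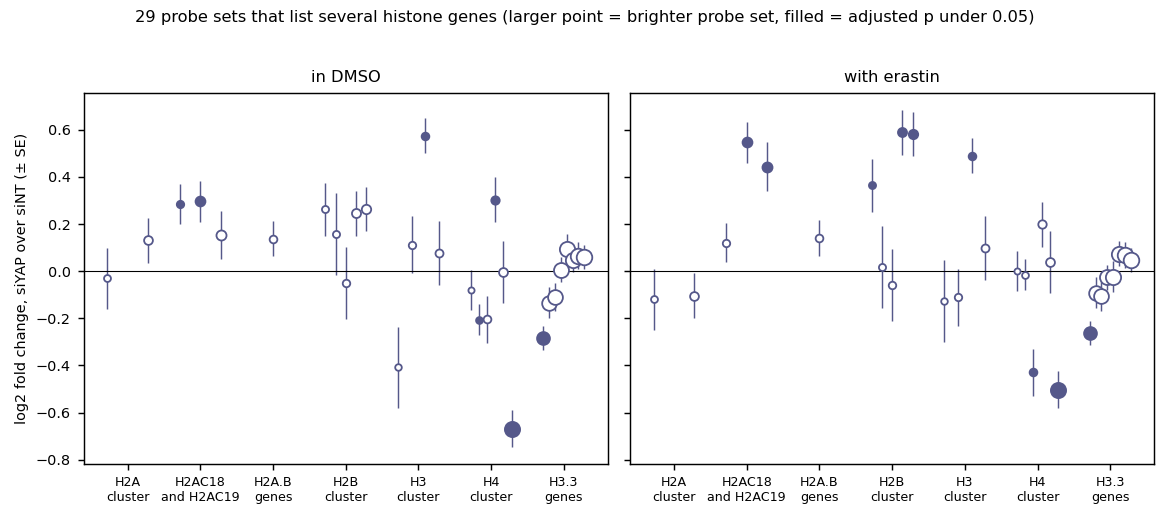
Log2 fold change of siYAP over siNT (y axis, with the standard error) for the 29 probe sets that list several genes, by the genes they share, in DMSO and with erastin; larger points are brighter probe sets and filled points had an adjusted p under 0.05. The large H4 point lies at -0.67 and -0.50, while the H3.3 points stay between -0.28 and 0.09.

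Erastin alone changed no histone gene past the test. In siNT cells 0 of 49 were called by limma, against a background of 0.752% of all genes. At an unadjusted p under 0.05 there were 4 of 49, against 10.6% of all genes. With array weights 1 gene, H3C3, was called higher. H2AX was 10.51 to 10.54 with DMSO and 10.25 to 10.42 with erastin, lower on every array, but its difference of -0.18 was not called (adjusted p = 0.228). In siYAP cells 0 of 49 were called by limma, against a background of 0.334%, and 6 of 49 had an unadjusted p under 0.05, against 10.7% of all genes. H2BC12L came nearest, at 7.52 to 7.77 with DMSO and 7.99 to 8.03 with erastin, a difference of 0.34 ± 0.07 (adjusted p = 0.0711), and was called under 3 alternatives.

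The interaction asks whether silencing acted differently with erastin than in DMSO. By limma it called 0 of 49 histone genes and 0% of the 11963 genes. At an unadjusted p under 0.05 there were 12 of 49, against 9.86% of all genes. The rises of 6 of the 7 genes higher in both comparisons were numerically larger with erastin. The 7 were picked by their calls in these comparisons, and the share among all genes was not counted. Since several H2B probe sets may read the same RNAs, the 6 are not independent. H2BC12L differed most of the 7 between DMSO and erastin, at 0.49 ± 0.09 (adjusted p = 0.272). It was followed among the 7 by H1-2 at 0.37 (adjusted p = 0.488) and H2BC6 at 0.35 (adjusted p = 0.466). H2BC12 differed by 0.26 (95% interval 0.09 to 0.44, adjusted p = 0.422) and H2AC6 by 0.24 (interval 0.02 to 0.47, adjusted p = 0.493). The array control for ACTB, whose signal at the 3′ end over that at the 5′ end is read as a sign of RNA integrity, was at 3.54 ± 0.18 (SD, n = 3) log2 units in siYAP with erastin, against 2.59 ± 0.96 in siYAP with DMSO, 2.68 ± 0.28 in siNT with DMSO and 2.26 ± 0.69 in siNT with erastin. The GAPDH control lay between 0.15 and 0.22 in all groups. The ACTB value ran from 3.35 to 3.71 in siYAP with erastin and from 1.49 to 2.82 in siNT with erastin, without overlap. The part of these controls in the larger rises, or in any other change between siYAP and siNT with erastin, was not tested.

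Most members lie in the histone clusters of chromosome 6, where 55 histone genes stand and 38 were measured. Of the 38, 14 were called in 1 or both silencing comparisons, against 42.3% of all genes, and they ran from the 5th to the 47th gene with uncalled genes between them. H2AC6, H2BC5 and H2BC6 are the 15th, 17th and 18th histone genes along the chromosome, and H1-4, which lies between the first pair, differed by -0.11 in DMSO and was not called. H2BC12 is the 37th, beside H2AC11, which had no single-symbol probe set, and H4C9, which differed by 0.08 and was not called.

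**Figure D4:**
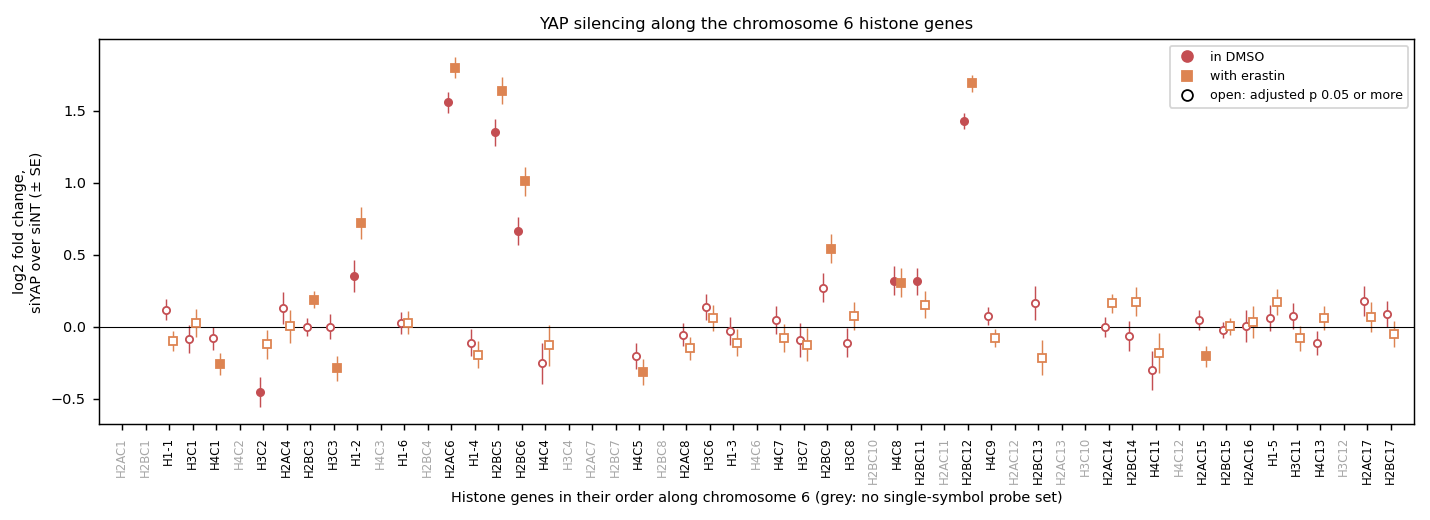
Log2 fold change of siYAP over siNT (y axis, with the standard error) for the 38 measured histone genes of chromosome 6, placed in gene order and not to scale of distance, with unmeasured genes named in grey; circles are DMSO, squares erastin, and filled points had an adjusted p under 0.05. The rises of H2AC6, H2BC5, H2BC6 and H2BC12 stand among genes near 0.

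RefSeq promoters of 250 bases before to 50 after the start were found for 46 of the 49 genes, leaving out H2BC12L, H3C11 and H4C1. Both strands were searched and motifs were allowed to overlap. CCAAT occurred in 40 of 46 windows (87.0%), against 35.7% of the 27305 genes in the table, and TATAAA in 30 (65.2%) against 12%. TTTGCAT occurred in 14 (30.4%) against 4.51%, of which 8 were among the 11 H2B windows and 6 among the 13 H2A windows. TTCCCGC, an E2F form, occurred in 6 windows (13.0%), all of H4 genes, against 6.56%, and its other form TTGGCGC in 2 (4.35%) against 3.12%. TTTGAA, the core of the CHR element of cell cycle promoters, occurred in 16 (34.8%) against 15.4%. Of the 6 genes higher in both comparisons with a window, 5 held CCAAT, 4 held TATAAA and 3 held TTTGCAT, and of the 37 called in 1 or neither, 33, 24 and 11 did. These counts describe the windows and were not tested.

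Among the genes that make, cut and place histones, lower calls outnumbered higher ones in each of 3 lists, and many members were not called. Of 21 measured genes of histone RNA synthesis and 3′ end processing, 1 was higher and 11 were lower in DMSO, and 1 and 11 with erastin, so that 52.4% were lower in either, against 15.6% and 14.8% of all genes. The median changes were -0.19 and -0.14, against 0.02 and 0.01 for all genes. NPAT, the co-activator of histone genes at histone locus bodies, was 8.36, 8.38 and 8.34 in siNT with DMSO and 7.10, 7.08 and 7.24 in siYAP with DMSO. NPAT fell by 1.22 ± 0.09 (adjusted p = 4.83e-07), and by 1.13 with erastin (adjusted p = 9.85e-07). SLBP, which binds the stem-loop, was 11.05, 10.97 and 10.80 against 10.02, 10.05 and 10.15 in DMSO. SLBP fell by 0.87 ± 0.09 (adjusted p = 6.14e-06) and by 0.94 with erastin (adjusted p = 3.38e-06). CCNE2 and CCNE1, the E cyclins whose kinase acts on NPAT, fell by 1.86 and 0.95 in DMSO, NCBP1, of the cap-binding complex, by 0.88, and CASP8AP2, which joins the processing machinery, by 0.50. The rise was that of TUT7, a terminal uridyltransferase (0.47, adjusted p = 0.000613).

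Of 17 replication-coupled chaperone genes, 1 was higher and 12 were lower in DMSO, and 0 and 11 with erastin, with medians of -0.42 in both. The lower share was 70.6% and 64.7%, against 15.6% and 14.8% of all genes. HAT1, which acetylates new H4, ran from 10.54 to 10.71 in siNT with DMSO and from 9.42 to 9.54 in siYAP with DMSO, a fall of 1.11 (adjusted p = 1.07e-07). NASP, a carrier of H3 and H4, fell by 1.01, MCM2, a helicase subunit that also holds H3 and H4, by 1.30, CHAF1A, the large subunit of CAF-1, by 0.90 and ASF1B, which hands H3 and H4 to CAF-1, by 0.86. ASF1A, the paralogue of ASF1B, rose by 0.31 in DMSO (adjusted p = 0.00342) and was not called with erastin (0.04, adjusted p = 0.694).

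Of 21 genes of variant chaperones and exchange complexes, 0 were higher and 6 lower in DMSO, and 3 and 7 with erastin. In all 28.6% and 47.6% were called, against 33.7% and 34.9% of all genes, and 28.6% and 33.3% were lower, against 15.6% and 14.8%. Those that fell most handle centromeric histone. HJURP, the chaperone of CENPA, ran from 9.29 to 9.35 in siNT with DMSO and from 7.56 to 7.72 in siYAP with DMSO, a fall of 1.68 ± 0.07 (adjusted p = 1.64e-08), and MIS18A and OIP5 of its loading complex fell by 1.09 and 0.91. ATRX, a chaperone partner of H3.3, fell by 0.44 (adjusted p = 0.000514). The variant CENPA, whose symbol is outside the membership rule, fell by 1.02 ± 0.09 (adjusted p = 1.92e-06) and by 0.92 with erastin. MACROH2A1 fell by 0.24 and 0.28, and MACROH2A2 differed by 0.03 in both and was not called. Erastin in siNT cells lowered 1 gene of these lists, CCNE1 (adjusted p = 0.0456).

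**Figure D5:**
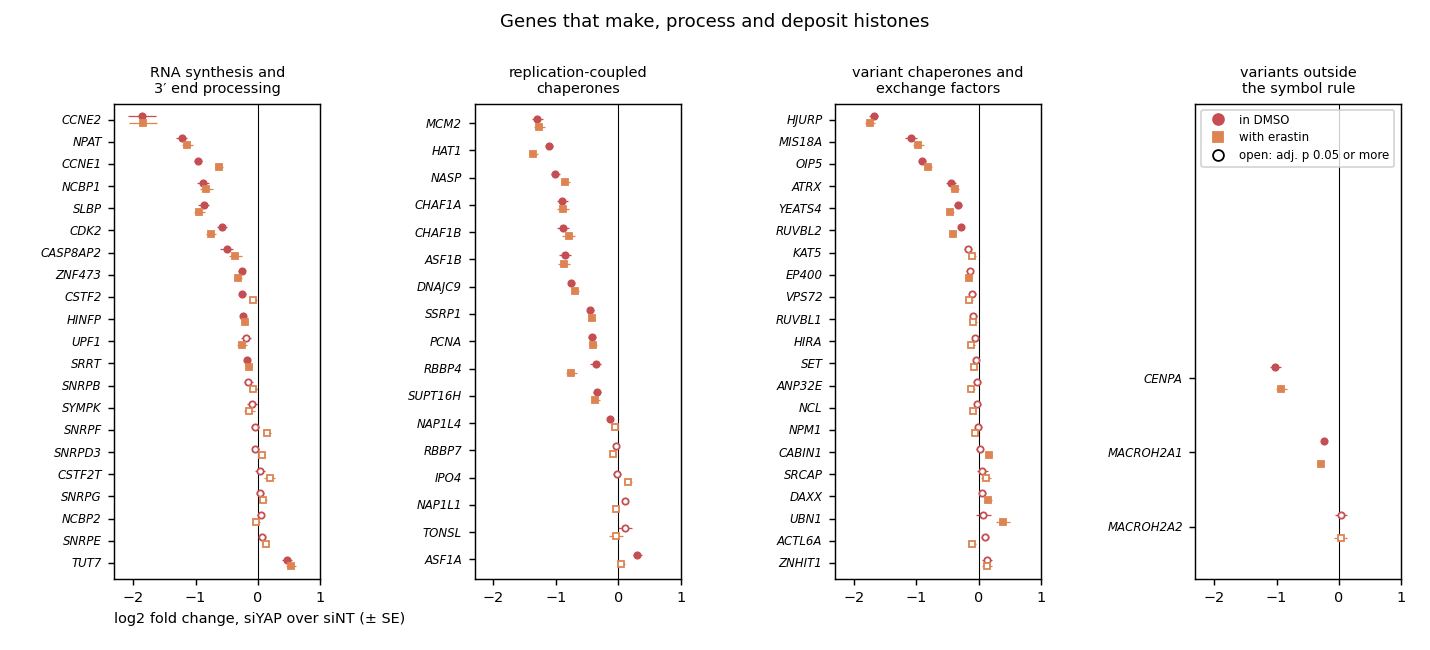
Log2 fold change of siYAP over siNT (x axis, with the standard error) for the measured genes of 3 lists and 3 variants outside the symbol rule, in DMSO (circles) and with erastin (squares), filled where the adjusted p was under 0.05. The largest falls in DMSO are those of CCNE2, HJURP, MCM2 and NPAT, with erastin HAT1 (-1.36) falls by more than MCM2 (-1.27), and TUT7 and ASF1A are the rises in DMSO.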

How the data were processed

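The values are the submitters' deposited table of 12 single-channel Affymetrix arrays. Per the submitters' processing notes the authors used RMA in Affymetrix Expression Console, and the deposited values are log2 signals per probe set, as their range of 2.02 to 14.45 and array medians of 6.49 to 6.52 show. For the software versions, the type of array and the day of scanning the sources used here give nothing, and a test for batches was not possible. The number of arrays limits the precision.

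The table held 22277 probe sets, 62 of them controls. A platform annotation gave 1 symbol for 19065, several for 1043 and none for 2107, and 19053 matched RefSeq. For each gene the single-symbol probe set with the highest mean over 12 arrays was taken. Histone genes and gene lists were chosen with earlier results of these data known. Named genes were the called members (up to 12 rises and 12 falls per comparison), H2AZ1, H2AZ2, H2AX, H2AJ, H3-3A, H1-2, H1-10, H2AC6, H2BC12 and H2BC21 throughout, and up to 4 called genes per list plus SLBP, NPAT, CASP8AP2, CENPA, CHAF1A and ASF1B. Other genes under this rule are not reported here. TUT7, ASF1A and MACROH2A2 were named after their values were seen.

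limma 3.58.1 in R 4.3.3 fitted a mean per group to all 12 arrays (8 residual and 4.17 prior degrees of freedom), with Benjamini-Hochberg adjustment over 11963 genes in each of 5 comparisons. All p-values are limma's and two-sided, and errors of changes are standard errors. The script was tested on simulated data. Alternatives covered arrays in the fit, replicate number as a block, scaling, dim probe sets, choice of probe set, variance model, threshold and each array left out.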

Additional observations from a re-analysis of the deposited data

How the results depend on the processing

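In DMSO the count of higher histone genes, 8, was 5 at an adjusted p under 0.01, 5 without _x_at probe sets (an alternative chosen after seeing the data, with 42 members measured) and 5 to 9 with single arrays left out; it was 5 without siNT with DMSO replicate 2, which lost H1-2, H2BC11 and H4C8. Lower genes numbered 6, and 4 to 5 with single arrays left out. With erastin, higher genes numbered 9, then 5 without _x_at probe sets and 7 to 10 with single arrays left out. Lower genes with erastin numbered 7, then 3 at an adjusted p under 0.01 and 4 to 6 with single arrays left out, 4 being reached without siNT with erastin replicate 1 and without siYAP with erastin replicate 2. For erastin in siNT cells, 0 higher became 1 (H3C3) with array weights, and in siYAP cells 0 became 1 (H2BC12L) without the dimmest 30% of probe sets, with a trended and robust variance, and with array weights. Array weights also moved all genes called with erastin from 90 to 323 in siNT and from 40 to 73 in siYAP cells. The causes were not tested.

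Replicate numbers were not used to pair the arrays, and whether a number marks a shared culture is not stated. Correlations of same-numbered deviations ran from -0.417 to 0.19, and those of differently numbered ones from -0.22 to 0.343. These few correlations cannot settle whether arrays are paired. With the replicate number as a block, 8 were higher and 5 lower in DMSO and 8 and 6 with erastin, losing H2AC25, H4C8 with erastin and H2AC15, and all genes called went from 90 to 38 and from 40 to 28 in the erastin comparisons. The recomputed changes of all named genes, histone genes and others together, were also counted. Of these, 1971 stayed on the same side of the threshold, 77 lost and 9 gained a call. None that was called changed sign. Changes not called in either fit could change sign and still be counted among the 1971.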
